A study of Arabidopsis thaliana with 16 samples.

Results

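Transcript levels of 3 Arabidopsis genes were followed across all combinations of dexamethasone (DEX), the synthetic auxin naphthaleneacetic acid (NAA) and the protein synthesis inhibitor cycloheximide (CHX) in seedling roots. The genes were AT5G45670, of the GDSL esterase/lipase family, AT3G57950, and AT3G18280, of the lipid-transfer protein family. They were chosen from earlier results of the same arrays because DEX raised each of them in all 4 backgrounds, that is without other agents, with NAA, with CHX and with both. Each is named by 1 of the 22746 probe sets tested, and 13513 of these probe sets carry the name of 1 gene.

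PUCHI, a transcription factor of the AP2/ERF family, acts in lateral root primordia, where it is known to promote the synthesis of very-long-chain fatty acids. A fusion to the hormone-binding domain of the glucocorticoid receptor (GR) stays in the cytoplasm until DEX releases it to the nucleus. CHX given together with DEX blocks new translation, so that a response that remains does not need newly made protein. GDSL esterases/lipases hydrolyse or transfer acyl groups, and several of them build or break down cutin and suberin. Lipid-transfer proteins are small, secreted, cysteine-rich proteins that bind lipids and take part in the deposition of extracellular lipid barriers.

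All seedlings carried gPUCHI:GR, driven by the gene's own regulatory region, in the puchi-1 mutant, and roots were taken at 5 days of age after 4 h of treatment. The groups were NAA+DEX+CHX, NAA+CHX, DEX+CHX, CHX, NAA+DEX, NAA, DEX and a mock with 0.1% DMSO, with DEX at 2 µM, NAA at 1 µM and CHX at 10 µM. Each group had 2 arrays from independent RNA sets, 16 in all. Whether the sets came from separate plantings is not stated, so p-values measure the spread between these samples. No DEX-treated roots without the transgene are among these arrays, so DEX itself and PUCHI-GR activation cannot be told apart.

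Replicate arrays of a group correlated at r = 0.983 to 0.989 over the probe sets (not independent of each other). Of 10 root markers 3 were measured by name, the beta-glucosidase PYK10 and the root hair expansins EXPA7 and EXPA18, and of 6 markers of green tissue 2 were, RCA and LHCB4.1. None of these was listed at 0 on any array. The summed root marker intensity was 12805 to 19126 on the arrays with CHX and 25146 to 31253 on those without. PYK10 made up most of this sum, averaging 28120 in mock roots and 15254 in CHX roots. EXPA7 averaged 888 and 894 in these groups, and EXPA18 1515 and 673. The summed green marker intensity was 569 to 817 with CHX, 621 to 752 with NAA but no CHX, and 837 to 1201 with neither NAA nor CHX. The PUCHI probe set, which cannot tell the fusion transcript from that of the mutant gene, averaged 1836 ± 113 in NAA+DEX roots, 1770 ± 105 in NAA roots, 110.5 ± 9.33 in DEX roots and 208 ± 17.8 in mock roots (SD, n = 2 each). On the arrays with CHX its group means were 385 to 434.

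AT5G45670 had intensities of 124 and 171 on the NAA+DEX+CHX arrays and 87.8 and 79.9 on the NAA+CHX arrays. They were 113 and 111 on the DEX+CHX arrays and 62.2 and 55.5 on the CHX arrays. Without CHX they were 434 and 448 with NAA+DEX, 137 and 145 with NAA, 386 and 393 with DEX, and 179 and 257 in the mock. The order of group means from high to low was NAA+DEX, DEX, mock, NAA+DEX+CHX, NAA, DEX+CHX, NAA+CHX and CHX, with a 7.48-fold range of mean intensity. Of these neighbours only NAA+DEX+CHX and NAA had overlapping arrays. The mock pair was the widest of the 8 pairs, with an SD of 0.34 on the log2 scale, against 0.17 pooled over the groups.

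AT3G57950 had intensities of 186 and 197 on the NAA+DEX+CHX arrays and 61.1 and 59.9 on the NAA+CHX arrays. They were 265 and 313 on the DEX+CHX arrays and 151 and 110.1 on the CHX arrays. Without CHX they were 729.9 and 603 with NAA+DEX, 458 and 432 with NAA, 113 and 119.9 with DEX, and 90.5 and 90.5 in the mock. The order from high to low was NAA+DEX, NAA, DEX+CHX, NAA+DEX+CHX, CHX, DEX, mock and NAA+CHX, an 11.0-fold range. Only CHX and DEX, which stood next to each other, overlapped. Both groups with NAA and no CHX thus stood above the other 6, and NAA+CHX was the lowest of all.

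AT3G18280 had intensities of 413 and 463 on the NAA+DEX+CHX arrays and 249.6 and 275 on the NAA+CHX arrays. They were 451 and 400.1 on the DEX+CHX arrays and 330.3 and 330.0 on the CHX arrays. Without CHX they were 367 and 318 with NAA+DEX, 286 and 235 with NAA, 3029 and 3288 with DEX, and 2345 and 2641 in the mock. The DEX and mock arrays stood far above all others, by 2.47 on the log2 scale between the mock mean and the next group. Below them followed NAA+DEX+CHX, DEX+CHX, NAA+DEX, CHX, NAA+CHX and NAA, a 12.1-fold range over the 8 groups. Overlap was found between NAA+DEX+CHX and DEX+CHX, between NAA+DEX and CHX, and between NAA+CHX and NAA.

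**Figure D1:**
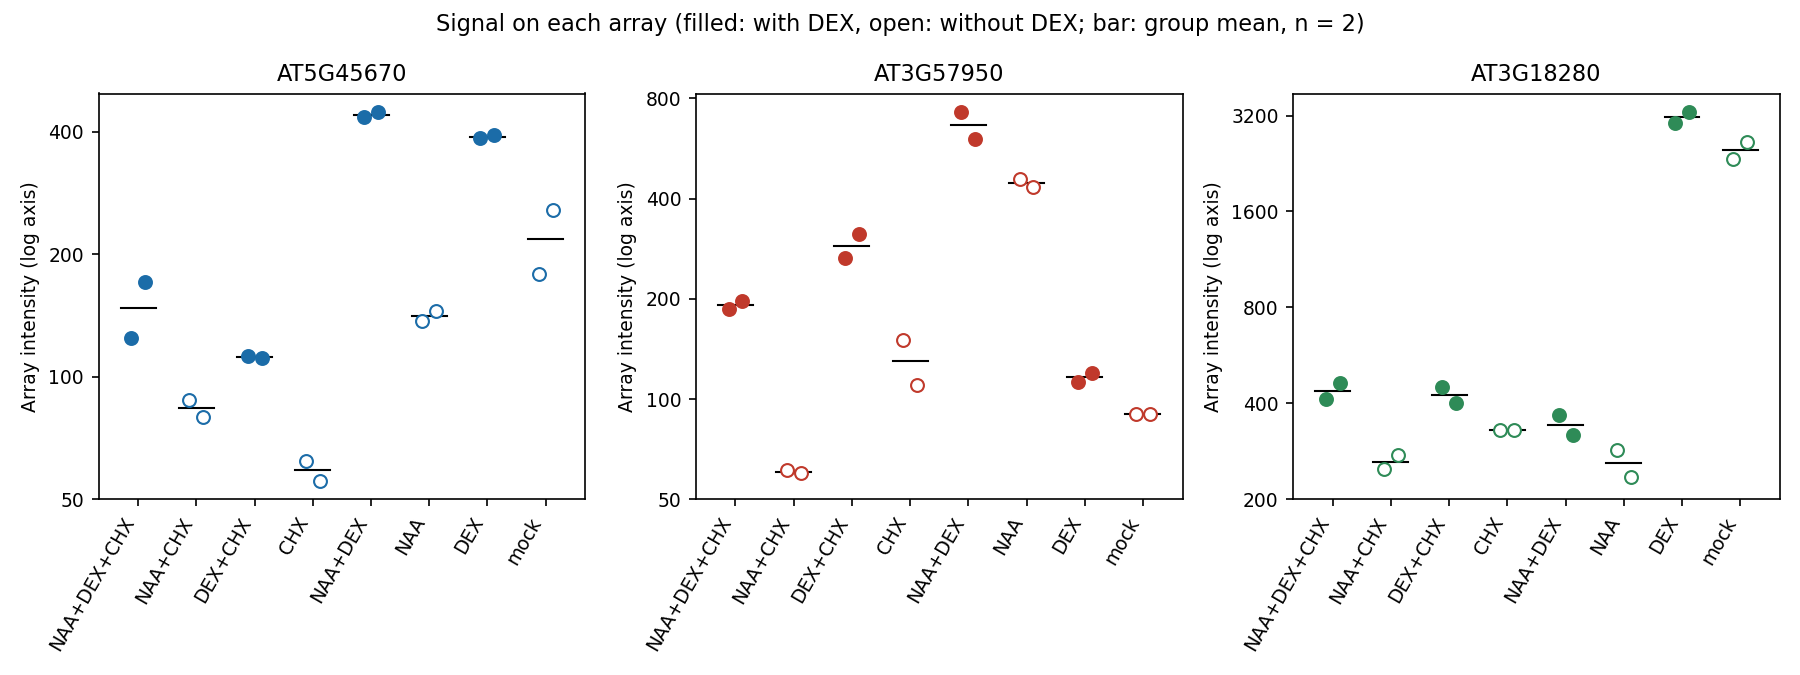
Array intensity (log axis) of each gene on each of the 16 arrays, by treatment group, with filled points for arrays with DEX, open points for arrays without and a bar for the group mean (n = 2). AT3G18280 lies between 2345 and 3288 in the DEX and mock groups and between 235 and 463 in the 6 groups with NAA or CHX.

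The DEX differences chose these genes, so they are given as a description, with no test. For AT5G45670 the log2 difference between DEX and no DEX, on the log2(intensity + 16) scale used for all changes here, was 0.70 with NAA and CHX, 0.78 with CHX, 1.54 with NAA and 0.81 alone (SE 0.187 each). For AT3G57950 it was 1.44, 1.07, 0.56 and 0.31 in the same backgrounds (SE 0.167 each). For AT3G18280 it was 0.71, 0.35, 0.38 and 0.34 (SE 0.119 each). In all 12 cases both DEX arrays lay above both arrays of the same background without DEX.

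On the log2 scale the DEX difference was widest with NAA for AT5G45670, and with NAA and CHX for AT3G57950 and AT3G18280. These values chose the genes, and their order was not tested. AT5G45670 had its widest one with NAA, at 441 ± 9.65 in NAA+DEX roots and 141 ± 5.44 in NAA roots (SD, n = 2 each), a 3.13-fold ratio of mean intensity. AT3G57950 had its widest one with NAA and CHX, at 192 ± 7.50 in NAA+DEX+CHX roots and 60.5 ± 0.832 in NAA+CHX roots (SD, n = 2 each), a 3.17-fold ratio. In intensity units AT3G57950 differed most with NAA, by 221, against 131 with NAA and CHX. Its log2 DEX difference was larger on both backgrounds with CHX than on both without. The ratio of its mean intensities was 1.29 for DEX against the mock. AT3G18280 had ratios of 1.27 to 1.67, the highest with NAA and CHX. DEX added 665 intensity units to its mock mean but 82.0 to its NAA mean.

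**Figure D2:**
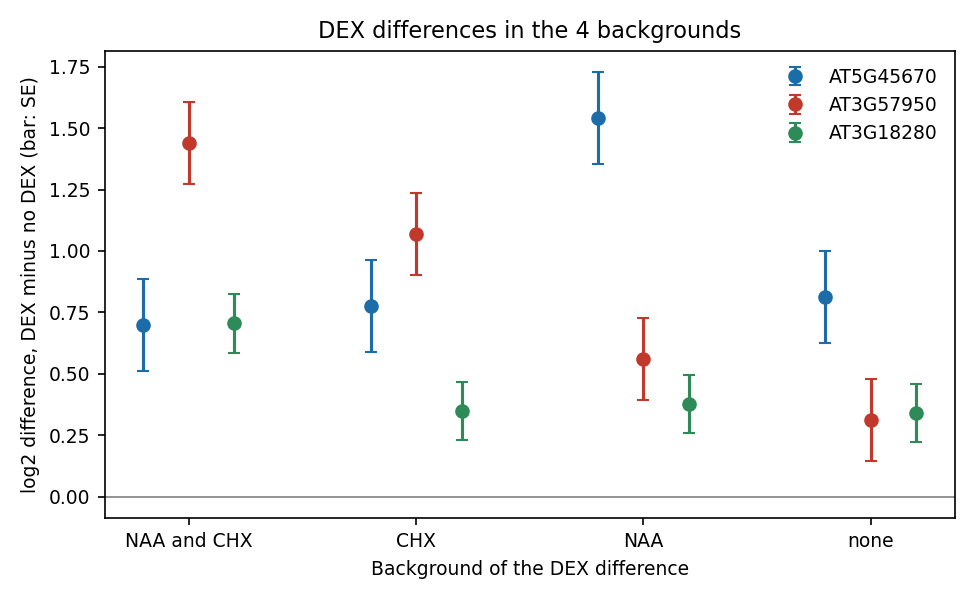
Log2 difference between arrays with and without DEX in each of the 4 backgrounds (points, n = 2 against 2; bars are the model's SE), by gene. The points lie between 0.31 and 1.54, with the widest differences for AT5G45670 with NAA and for AT3G57950 with NAA and CHX.

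Among all probe sets, 1259 (5.54%) had a higher mean with DEX in all 4 backgrounds, and 1687 (7.42%) had a lower one. In all 4 backgrounds, 36 (0.158%) had every DEX array above both arrays without DEX, and 35 (0.154%) had every DEX array below. Ranked by the smallest of their 4 DEX differences, AT5G45670 stood at place 2, AT3G18280 at place 16 and AT3G57950 at place 22. The choice of these genes set a high place in this ranking. LBD16, which encodes a LOB-domain regulator that starts lateral root formation, stood at place 6.

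The responses to NAA and CHX were tested with the DEX states averaged, 4 arrays against 4. This keeps the estimated changes independent of the DEX differences that chose the genes. The SE and p-values also use the spread between replicates, which may have played a part in that choice. For NAA without CHX 2 of the 3 genes were called, 1 in each direction, where 37.8% of all probe sets were (19% higher and 18.8% lower). For NAA with CHX 1 was called, lower, where 4.47% of all were (1.38% higher and 3.09% lower). For CHX without NAA 3 were called, 1 higher and 2 lower, where 63.9% of all were (29.5% higher and 34.4% lower). For CHX with NAA 2 were called, both lower, where 64.3% of all were (29.1% higher and 35.1% lower). For the interaction of NAA with CHX 3 were called, 2 higher and 1 lower, where 24.3% of all were (11.8% higher and 12.5% lower). In the comparisons of CHX a call is thus the common case over the array.

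NAA without CHX moved the genes in different directions. AT3G57950 rose 4.72-fold, at 556 ± 138 in roots with NAA and 103 ± 15.2 in roots without (SD, n = 4 each). The log2 change was 2.24 (SE 0.118, limma adjusted p 1.76e-10), and all 4 arrays with NAA lay above all 4 without. AT3G18280 fell 8.98-fold, at 302 ± 55.4 in roots with NAA and 2826 ± 416 in roots without (SD, n = 4 each). Its log2 change was -3.17 (SE 0.0843, limma adjusted p 3.74e-14), with all 4 arrays with NAA below all 4 without. Only 0.413% of the probe sets had a log2 change of larger size in this comparison. AT5G45670 had a log2 change of -0.19, which missed the threshold (SE 0.132, limma adjusted p 0.292).

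The NAA change of AT5G45670 had opposite signs in the DEX states. It was 0.17 in the arrays with DEX (limma adjusted p 0.575) and -0.56 in those without (limma adjusted p 0.0362, SE 0.187 each, n = 2 against 2). Both of these comparisons use single DEX states and thus arrays on which the gene was chosen, and the difference between them was not tested. For AT3G57950 the NAA change was 2.36 with DEX and 2.11 without, and for AT3G18280 it was -3.15 with DEX and -3.18 without.

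In the presence of CHX, NAA lowered AT3G57950, where it had raised the gene without CHX. The mean was 126 ± 75.8 in roots with NAA and CHX and 209.7 ± 95.2 in roots with CHX only (SD, n = 4 each), a log2 change of -0.74 (SE 0.118, limma adjusted p 0.00156). The spread in each set holds both DEX states. Within each DEX state both arrays with NAA lay below both without, with changes of -0.55 with DEX (limma adjusted p 0.141) and -0.92 without. AT5G45670 had a change of 0.38 (SE 0.132, limma adjusted p 0.138) and AT3G18280 one of -0.14 (SE 0.0843, limma adjusted p 0.456), neither of which passed.

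CHX without NAA lowered AT5G45670 and AT3G18280 and raised AT3G57950. AT5G45670 averaged 85.5 ± 30.8 in roots with CHX and 304 ± 104 in roots without (SD, n = 4 each), 3.12-fold lower (log2 change -1.64, SE 0.132, limma adjusted p 6.02e-09, 4 of 4 arrays below all those without). AT3G18280 averaged 378 ± 58.8 with CHX and 2826 ± 416 without (SD, n = 4 each), 7.22-fold lower (log2 change -2.85, SE 0.0843, limma adjusted p 7.81e-15, 4 of 4 arrays). The changes of both genes in the arrays with DEX and in those without differed by less than their SE. AT3G57950 averaged 209.7 ± 95.2 with CHX and 103 ± 15.2 without (SD, n = 4 each), with a log2 change of 0.82 (SE 0.118, limma adjusted p 8.71e-06, 3 of 4 arrays). Its change was 1.20 in the arrays with DEX and 0.44 in those without.

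In roots with NAA, CHX lowered AT3G57950 by a log2 change of -2.15 (SE 0.118, limma adjusted p 3.24e-11), to 126 ± 75.8 with CHX against 556 ± 138 without (SD, n = 4 each). AT5G45670 also fell, with a change of -1.07 (SE 0.132, limma adjusted p 1.39e-06), and 3 of the 4 arrays with CHX lay below all those without. Its change was -1.50 in the arrays with DEX and -0.65 in those without. AT3G18280, already low with NAA, averaged 350.0 ± 104 with CHX and 302 ± 55.4 without (SD, n = 4 each), a change of 0.18 that missed the threshold (SE 0.0843, limma adjusted p 0.079). This change was 0.24 without NAA replicate 1 and 0.23 without NAA+DEX replicate 1. In the arrays with DEX alone it was 0.34 and passed (limma adjusted p 0.0217), while in those without DEX it was 0.012. These last 2 values use single DEX states and thus arrays on which the gene was chosen.

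The test of whether the NAA change itself differed with CHX was passed by each gene, against 24.3% of all probe sets. For AT3G18280 the NAA change with CHX minus that without was 3.03 (SE 0.119, limma adjusted p 1.84e-11), and for AT3G57950 it was -2.97 (SE 0.167, limma adjusted p 1.27e-09). In size these were exceeded by 0.4% and 0.413% of the probe sets. For AT5G45670 it was 0.57 (SE 0.187, limma adjusted p 0.0352), a call lost in 12 of the 16 leave-one-out fits, with values of 0.45 to 0.69 and limma adjusted p up to 0.101. It kept its side of the threshold only without mock replicate 1, CHX replicate 1, NAA+CHX replicate 2 or NAA+DEX+CHX replicate 1, and in the arrays with DEX alone it was 0.17 (limma adjusted p 0.765).

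Set side by side, NAA and CHX given together changed AT3G18280 by -2.99 relative to roots with neither (SE 0.0843), about as much as each agent did singly, where the sum of the single changes would be -6.02. AT3G57950 differed by 0.09 (SE 0.118), where the sum of its single changes would be 3.06. AT5G45670 differed by -1.27 (SE 0.132), beside a sum of -1.84. In these bulk root samples, fewer cells of a type and less RNA per cell cannot be told apart. Beside the fall of AT3G18280 with NAA, the root markers EXPA7 and EXPA18 fell with log2 changes of -0.64 and -0.69, and RCA and LHCB4.1 of the green tissue list fell with -0.55 and -0.65 (limma adjusted p 7.24e-05, 2.89e-05, 0.00052 and 0.00326), while PYK10 had a change of -0.095 (limma adjusted p 0.525). Beside its fall with CHX, PYK10, EXPA18 and RCA fell with changes of -0.90, -1.16 and -0.69 (limma adjusted p 4.54e-07, 1.47e-08 and 2.26e-05), while EXPA7 had -0.18 (limma adjusted p 0.142) and LHCB4.1 had -0.032 (limma adjusted p 0.877). Their part in the result was not tested.

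**Figure D3:**
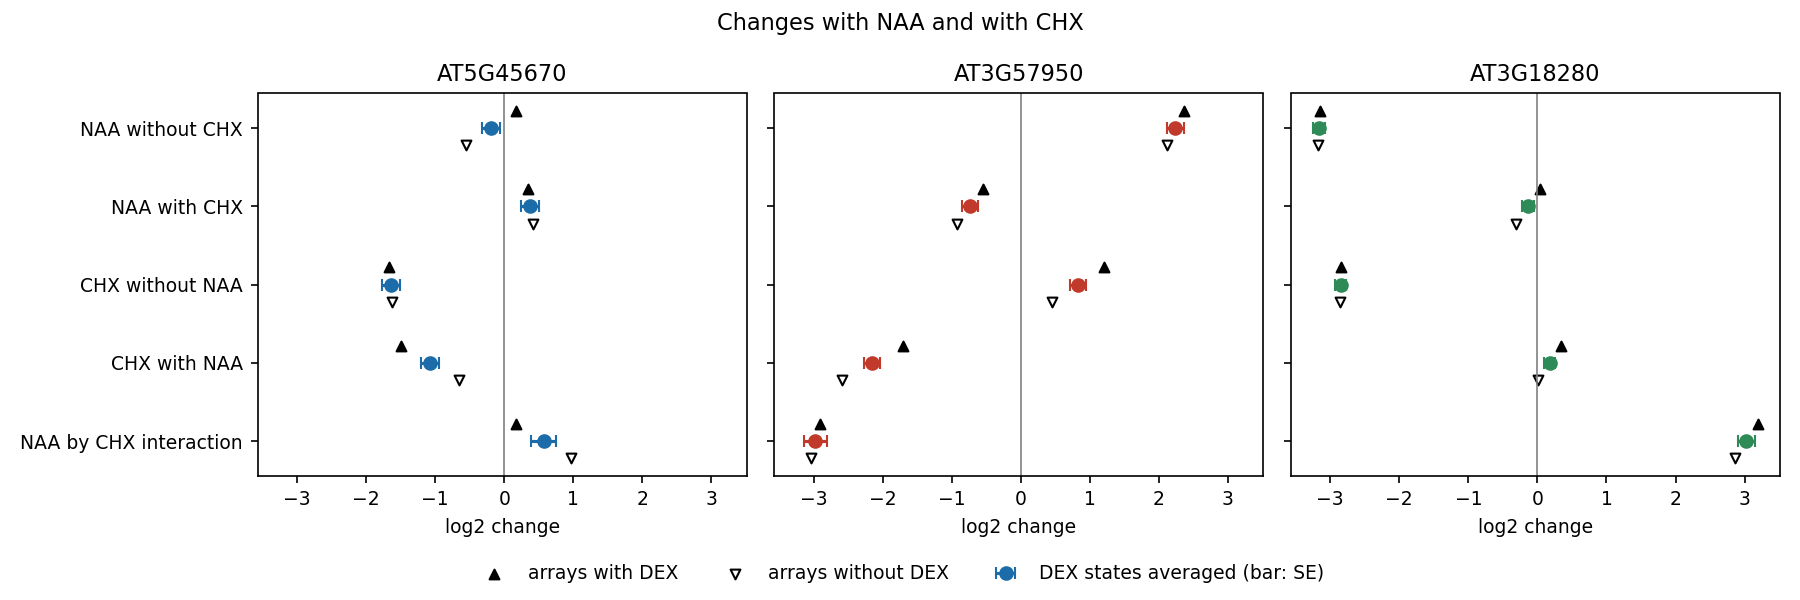
Log2 changes of each gene with NAA and with CHX, and the change in the NAA response with CHX (bottom row), with the DEX states averaged (coloured points, n = 4 against 4; bars are the model's SE), in arrays with DEX (filled triangles) and in arrays without (open triangles). AT3G18280 moves to -3.17 with NAA and -2.85 with CHX but to -0.14 and 0.18 once the other agent is present, and AT3G57950 changes sign.

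The families of AT5G45670 and AT3G18280 were described through lists of locus names drawn up from general knowledge of these families, since no gene descriptions were at hand, so they may be incomplete. Of 62 other listed GDSL genes 43 were measured by name, and none of them was called for the DEX average, where 0.0791% of all probe sets were called (0.0659% higher and 0.0132% lower) and the list median was -0.02 (all probe sets -0.01). In that limma comparison 3 of the 43 were higher and 3 lower at an unadjusted p under 0.05. Of all 22746 probe sets 1581 were under it, in either direction. With NAA and no CHX 3 rose and 11 fell, where 19% of all probe sets were called higher and 18.8% lower (list median -0.03, all probe sets -0.00068). AT5G55050 rose by 2.42, AT5G45950 by 1.26 and AT3G50400 by 0.83, while AT1G75900, AT1G28570 and AT1G09390 had changes of -1.39, -1.37 and -0.96. AT5G45950 was dim, with mean intensities of 3.51 in mock roots and 21.1 in NAA roots. Other listed genes of both families, such as AT1G33811 and AT5G38170, were dim in every group, and the counts and medians include them.

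With CHX and no NAA 7 of the 43 GDSL genes rose and 15 fell, where 29.5% of all probe sets were called higher and 34.4% lower (list median -0.07, all probe sets -0.0071). AT1G28600 rose by 5.97, to 3679 to 4125 on the CHX arrays against 21.4 to 47.0 on the mock arrays. The largest falls were those of AT2G23540 (-5.23), AT1G74460 (-4.21) and AT3G50400 (-3.47). With CHX in roots with NAA 9 rose and 15 fell, where 29.1% of all probe sets were called higher and 35.1% lower. AT5G55050, which NAA had raised, fell by 3.84 there, and the NAA change differed with CHX in 9 of the 43 genes, 5 upward and 4 downward, where 24.3% of all probe sets were called (11.8% and 12.5%). The change of AT5G45670 with CHX, -1.64, was thus one among a wide range in this list. With NAA and CHX 1 rose (AT5G08460, 1.12) and 1 fell (AT1G28580, -0.44), where 1.38% of all probe sets were higher and 3.09% lower. AT5G08460 was dim too, averaging 4.87 in CHX roots and 31.4 in NAA+CHX roots.

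Of 23 other listed lipid-transfer genes 7 were measured by name, and none was called in limma for the DEX average (list median -0.08). At an unadjusted p under 0.05 in that comparison, 0 were higher and 1 lower. Of all 22746 probe sets 1581 were under it, in either direction. AT1G48750, with a DEX average of -0.16 (limma adjusted p 0.699), had intensities of 979 and 1048 on the NAA+DEX arrays, 1090 and 1107 on the NAA arrays, 6453 and 6915 on the DEX arrays and 6652 and 6821 on the mock arrays. NAA lowered it by a log2 change of -2.65 (SE 0.0965, limma adjusted p 1.65e-12) and CHX by -6.02 (SE 0.0965, limma adjusted p 2.93e-18). In roots with NAA, CHX gave a further change of -3.80, beside 0.18 for AT3G18280. AT1G73780 fell with NAA (-2.04) and with CHX (-2.17), and its level was 28.2 to 31.1 with NAA and no CHX, against 145 to 201 with neither.

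In total 0 of the 7 rose and 2 fell in limma with NAA and no CHX (list median -0.41), and 0 rose and 4 fell with CHX and no NAA (list median -0.63). Of all probe sets 19% were called higher and 18.8% lower in the first comparison, and 29.5% and 34.4% in the second. At an unadjusted p under 0.05 there were 1 and 2, and 0 and 5. Of all 22746 probe sets 10120 and 15021 were under it in these comparisons, in either direction. AT3G22620 fell with a CHX change of -4.73, while its NAA change was 0.12 (limma adjusted p 0.526). The difference between the NAA changes with and without CHX was called upward for AT1G48750 (2.22) and AT1G73780 (1.87), where 11.8% of all probe sets were. With NAA and CHX only AT1G48750 passed (-0.43, limma adjusted p 0.0175), where 3.09% of all probe sets were called lower. With CHX in roots with NAA 2 rose and 3 fell, where 29.1% and 35.1% of all probe sets were called. Both that rose were dim. AT5G38195 averaged 1.88 in NAA roots and 20.1 in NAA+CHX roots, and AT1G66850 averaged 4.28 and 15.9.

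**Figure D4:**
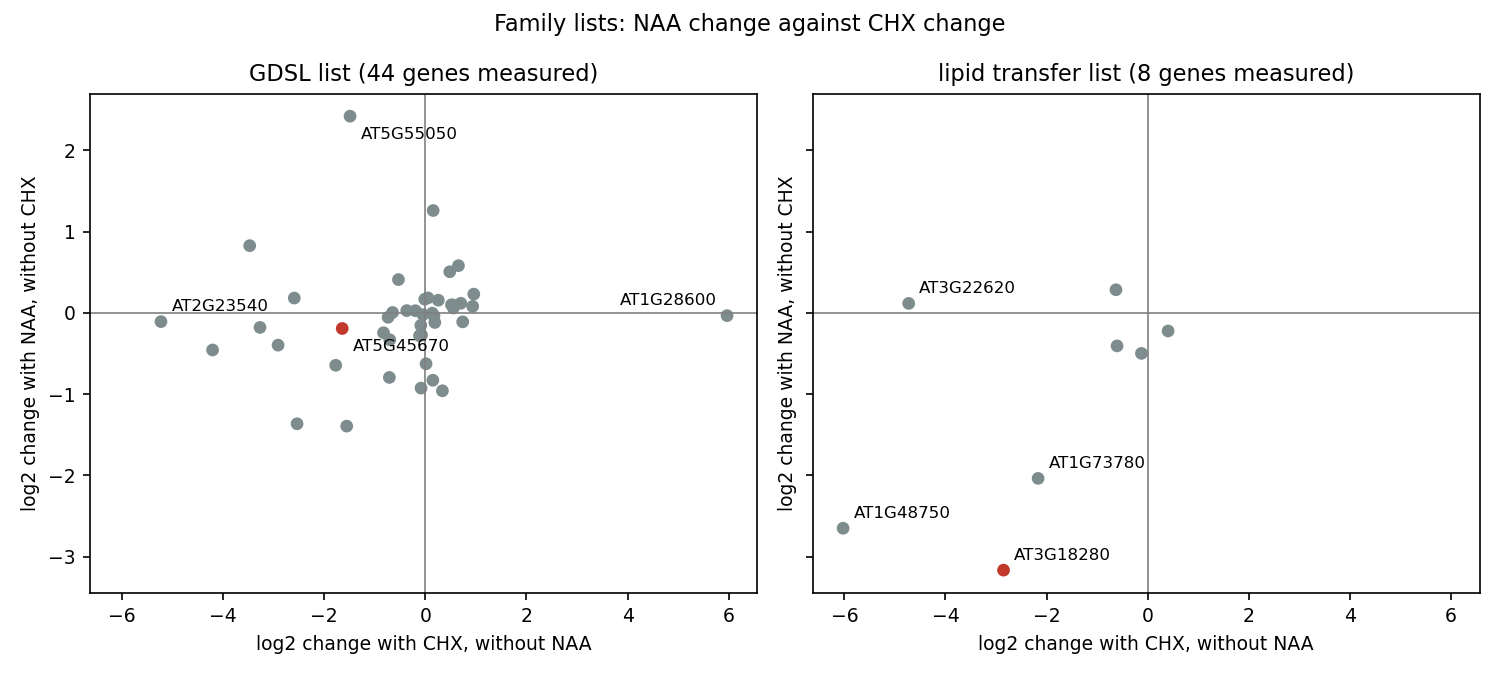
Log2 change with NAA in roots without CHX (y axis) against log2 change with CHX in roots without NAA (x axis), DEX states averaged, for the measured genes of the GDSL list (left, 44 with AT5G45670) and of the lipid transfer list (right, 8 with AT3G18280), with AT5G45670 and AT3G18280 in red. AT3G18280, AT1G48750 and AT1G73780 lie low on both axes.

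Early auxin response genes show the NAA treatment in the same arrays. Of 11 listed 7 were measured. All 7 rose with NAA and no CHX (list median 4.53), where 19% of all probe sets were called higher. Among them the auxin-conjugating enzyme genes GH3.3 and GH3.1 rose by 8.37 and 5.75. With NAA in the presence of CHX 6 rose (list median 0.98), where 1.38% of all probe sets were called higher. CHX without NAA also raised all 7 (list median 1.71), where 29.5% of all were called higher. The reference level for the NAA change with CHX was thus already raised. PUCHI rose by 3.44 with NAA without CHX (limma adjusted p 6.39e-14) and had an NAA change of 0.0031 in the presence of CHX (limma adjusted p 0.993). None of the 18 listed genes of very-long-chain fatty acid elongation and none of 11 for suberin and cutin is named in the annotation at hand, so these were not analysed here.

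The genes whose profile over the 16 arrays was most like each member were ranked by Pearson's r among 6031 named probe sets at or above the median level, as a description, since all values share the same arrays and scaling. For AT3G18280 they were UGT73B1, a UDP-glycosyltransferase gene (r = 0.977), AT2G43600, AT1G64590, AT1G19960 and AT1G21440 (0.96, 0.959, 0.958 and 0.956). Each had an NAA change of -2.60 to -1.24 and a CHX change of -2.92 to -1.16, and a DEX average of 0.02 to 0.12. By the order of the 8 group means they were less like AT3G18280, with Spearman correlations of 0.50 to 0.79. For AT3G57950 they were PRL (AT4G02060), AT4G32910, AT1G66180, MAP1C and AT2G15440 (r = 0.929 to 0.895), with NAA changes of 0.42 to 0.92 and DEX averages of 0.10 to 0.23. Their NAA changes with CHX were -0.28 to 0.03, beside -0.74 for AT3G57950. For AT5G45670 they were AT3G16190, AT3G56740, AT3G63460, OSM34 and AT2G39500 (r = 0.901 to 0.862), with CHX changes of -1.80 to -0.48 and DEX averages of 0.10 to 0.29. These DEX averages are not set against those of the 3 genes, whose choice fixed a high value. Among themselves the 3 genes correlated at 0.365 (AT5G45670 with AT3G57950), 0.545 (AT5G45670 with AT3G18280) and -0.40 (AT3G57950 with AT3G18280) over the 16 arrays.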

How the data were processed

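Biotin-labelled cRNA from 16 root RNA samples was hybridised to Affymetrix arrays, 1 sample and 1 colour each, per the labels' protocols. The deposited values are linear intensities per probe set from Affymetrix Expression Console 1.3, per the submitters' processing notes. No source used here names the summary algorithm, and detection calls were not used. After trimming 2% of probe sets at each end, the mean was 500.0 to 500.1 on each array when checked, so the authors' values are scaled to a common level, and changes are relative to it.

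Of 22810 probe sets 64 controls were left out. Values were taken as log2(intensity + 16), which understates changes of dim probe sets. The 16 arrays were fitted in limma 3.58.1 (R 4.3.3) with a mean for each group (variance trend, 8 residual and 7.94 prior degrees of freedom). Calls used a Benjamini-Hochberg adjusted p under 0.05 over all 22746 probe sets, 2-sided. Changes are differences of log2 values with the model's SE, and the number of arrays limits the precision. The fit was tested on simulated data. Gene names are those of the platform annotation, updated through gene IDs from the TAIR10.1 gene table for 13436 probe sets. It leaves 8730 unnamed.

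The genes, lists and comparisons were chosen with earlier results of these data known. Named are the 3 genes, the 5 named probe sets most correlated with each, up to 3 called genes per direction of each family list and comparison, PUCHI and LBD16, members of the auxin list, and the tissue markers. Further list genes named were chosen after their values were seen. A gene with several probe sets is represented by the one with the highest mean. Equally numbered replicates were not taken as pairs, since their deviations correlated by -0.046 to 0.064 between groups. Alternatives were another normalization, filter, pseudocount, variance prior, a replicate block, fewer arrays, single DEX states and leaving out each array. No sequence of these genes was at hand.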

Additional observations from a re-analysis of the deposited data

Results flagged for a closer look

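The NAA change differed with CHX for each of the 3 genes by the test of the difference itself, over all 16 arrays with the DEX states averaged. The NAA change with CHX minus that without was 0.57 for AT5G45670, -2.97 for AT3G57950 and 3.03 for AT3G18280 (limma adjusted p 0.0352, 1.27e-09 and 1.84e-11), where 24.3% of all probe sets were called. For AT5G45670 the call was lost in 12 of the 16 leave-one-out fits, and in the arrays with DEX the value was 0.17. With 2 arrays a group, no single array was tested for standing apart.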

How the results depend on the processing

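Of 372 values recomputed for the 3 genes, 352 kept their direction and side of the threshold. In the arrays with DEX alone the NAA change without CHX turned to 0.17 for AT5G45670 and the NAA change with CHX to 0.040 for AT3G18280, neither past the threshold (limma adjusted p 0.575 and 0.947). There, the NAA change with CHX of AT3G57950 (-0.55) and the interaction of AT5G45670 (0.17) were no longer called. AT3G18280 newly passed there for CHX with NAA (0.34). In the arrays without DEX AT5G45670 passed for NAA without CHX (-0.56). All of these values from single DEX states use arrays on which the genes were chosen. Leaving out 1 array gave the interaction of AT5G45670 values of 0.45 to 0.69, ending the call in 12 of 16 fits, and CHX with NAA for AT3G18280 values of 0.11 to 0.24, with a call in 2. The number of calls for NAA with CHX, 1017, was 572 without the variance trend, 297 in the arrays with DEX, 293 in those without, and 618 to 928 when 1 array was left out (672 without CHX replicate 2, 618 without DEX+CHX replicate 2, 619 without NAA+CHX replicate 2). For the interaction, 5527 calls became 3405 in the arrays with DEX and 3210 in those without, and 4960 to 5256 with 1 array left out. Halving the arrays lowers the power by construction, and otherwise the cause was not tested. For the DEX average 18 calls became 10 without NAA replicate 1 (10 to 22 over all such fits). The replicate block changed no call of the 3 genes; with it AT3G57950 had an NAA change without CHX of 2.24. Quantile normalization moved the median of all probe sets by no more than -0.097. Fits on only the 8 arrays compared cannot be made for the interaction and the DEX average. Low intensities have no detection call behind them here. They include AT5G45670 with CHX and AT3G57950 on the NAA+CHX arrays (61.1 and 59.9). Of the listed genes they include AT5G45950, AT5G08460, AT1G73780, AT5G38195 and AT1G66850.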

Other observations

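IAA33, a gene of the Aux/IAA family, was singled out after its values were seen. Its log2 differences with DEX were 1.08 with NAA and CHX, 1.10 with CHX, 0.55 with NAA and 0.57 alone, and both DEX arrays lay above both arrays without DEX in each background. It stood at place 7 of all probe sets by the smallest of its 4 differences. AT3G28840, at place 10, had differences of 0.65, 0.40, 0.68 and 0.74 in the same backgrounds, with the same separation of arrays. LBD16 averaged 910 ± 23.9 in NAA+DEX+CHX roots and 610 ± 31.0 in NAA+CHX roots, and 211 ± 18.0 in DEX roots and 119 ± 4.52 in mock roots (SD, n = 2 each). These are descriptions with no test, since the genes were picked for these differences.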
